A study of Homo sapiens with 3 samples.

Results

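The genes described here are 39 members of the integrin, laminin and collagen IV families together with peroxidasin and the nidogens, measured in the human colorectal cancer line HCT-116. They were taken from a list of gene symbols, with no threshold on measured values, but the list was chosen with earlier results of these data known. It held 12 integrin α subunits, 8 integrin β subunits, 10 laminin chains, 6 collagen IV chains, and PXDN, NID1 and NID2. The study hybridised 3 arrays, 1 for each condition. The first condition was SCD1-WT cells treated with DMSO, the second SCD1-WT cells treated with the SCD1 inhibitor T-3764518 (below, the inhibitor), given as 100 nM in the methods, and the third SCD1-KO cells (below, the knockout), in which part of the SCD gene had been deleted with Cas9 and a pair of guide RNAs. Treatment lasted 24 h; the labels of the SCD1-KO array give neither a vehicle nor a time, and DMSO was taken from the methods. The SCD1-KO cells were picked as clones after puromycin selection and plating at limiting dilution, and the methods describe no such cloning of the SCD1-WT cells. A difference between SCD1-KO and SCD1-WT cells that comes from picking a clone and one that comes from loss of SCD1 cannot be told apart here. The signals of the SCD1-KO array were also given to a finer digit. The lowest reads 0.157018 there, against 0.3 with DMSO and 0.1 under the inhibitor. Whether the SCD1-KO array was processed apart from the SCD1-WT arrays was not tested. A difference in processing would enter every ratio of the knockout. No condition had a second array, so the differences below are unreplicated and carry no p-values; both ratios share the DMSO array.

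Integrins are receptors of an α and a β subunit that bind the matrix outside the cell and couple it, through adaptors such as talin, to actin or, for the α6β4 integrin, to keratin filaments. Laminins are trimers of an α, a β and a γ chain, and they form the layer of the basement membrane that epithelial integrins bind. Collagen IV is the other network of the basement membrane, built from trimers of its 6 chains. Peroxidasin, encoded by PXDN, is a secreted heme peroxidase that joins neighbouring collagen IV trimers through sulfilimine bonds, and nidogens link the laminin layer to collagen IV. Intestinal epithelial cells rest on such a membrane.

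Of 19775 genes that a probe set of the array names alone, 12321 had a probe set kept for analysis, that is, one whose log2 signal, averaged over the 3 arrays, reached the median probe set (56.6). Of the 39 members, 23 passed this filter with 38 probe sets, 14 were near background, and 2 had no probe set that names them alone. A gene's value is the middle of the log2 ratios that its kept probe sets gave against the DMSO array, and a gene is called higher or lower at 2-fold. Calls, log2 ratios and values below 1-fold use the signals as deposited; where a signal was below 56.6, a fold given as "at least" is a lower limit with that signal set to 56.6. The only error available is the spread between probe sets of the same gene. Its SD on the log2 scale was 0.58 for the inhibitor and 0.60 for the knockout in the dimmest quintile of kept probe sets and 0.26 and 0.25 in the brightest, and it does not cover differences between cultures. SCD, the targeted gene, was read by 4 probe sets with signals from 834 to 23841 with DMSO, from 6908 to 39350 under the inhibitor and from 1965 to 24119 in the knockout; the deleted part is not placed on these probe sets, so they do not check the knockout. The paper checked the deletion by genome sequencing and reported no SCD1 protein in the knockout by western blot. The ACTB probe sets gave 3′ over 5′ ratios of 1.30 with DMSO, 1.36 under the inhibitor and 1.54 in the knockout.

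Under the inhibitor, 1 of the 23 tested members was higher, against 2.18% of all tested genes, and 0 were lower, against 3.30%. In the knockout, 3 members were higher, against 3.12% of all tested genes, and 2 were lower, against 3.93%. The median log2 ratio of the tested members was -0.035 under the inhibitor and 0.17 in the knockout, where the medians of all tested genes were -0.087 and -0.011. At 1.5-fold, 2 members were higher and 2 lower under the inhibitor, against 6.62% and 12.3% of all tested genes, and 7 were higher and 3 lower in the knockout, against 9.95% and 11.4%. The member higher under the inhibitor was LAMB3. In the knockout ITGA10, ITGB8 and ITGB4 were higher, and PXDN and COL4A4 were lower. Scaling the arrays to 1 median signal raised every log2 ratio to the DMSO array by the same amount and moved the median of all tested genes from -0.087 to 0.19 under the inhibitor and from -0.011 to 0.13 in the knockout. The ratios of members near 0, among them ITGAV, LAMA5 and COL4A5 under the inhibitor, therefore have no settled sign.

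**Figure D1:**
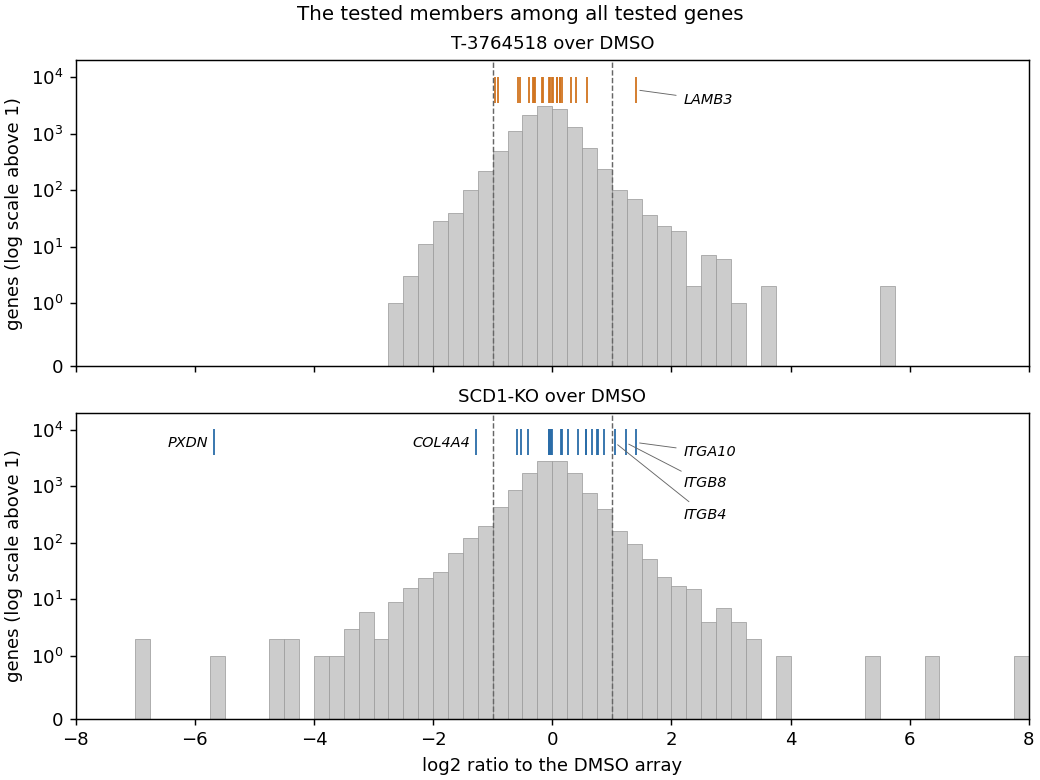
Histograms of the log2 ratios of all 12321 tested genes (grey bars, 0.25 wide, gene number on a log scale above 1) for T-3764518 over DMSO and SCD1-KO over DMSO; coloured ticks are the 23 tested members and dashed lines mark 2-fold. PXDN lies at -5.67 in the knockout on signals as deposited, and most other ticks fall inside the dashed lines.

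**Figure D2:**
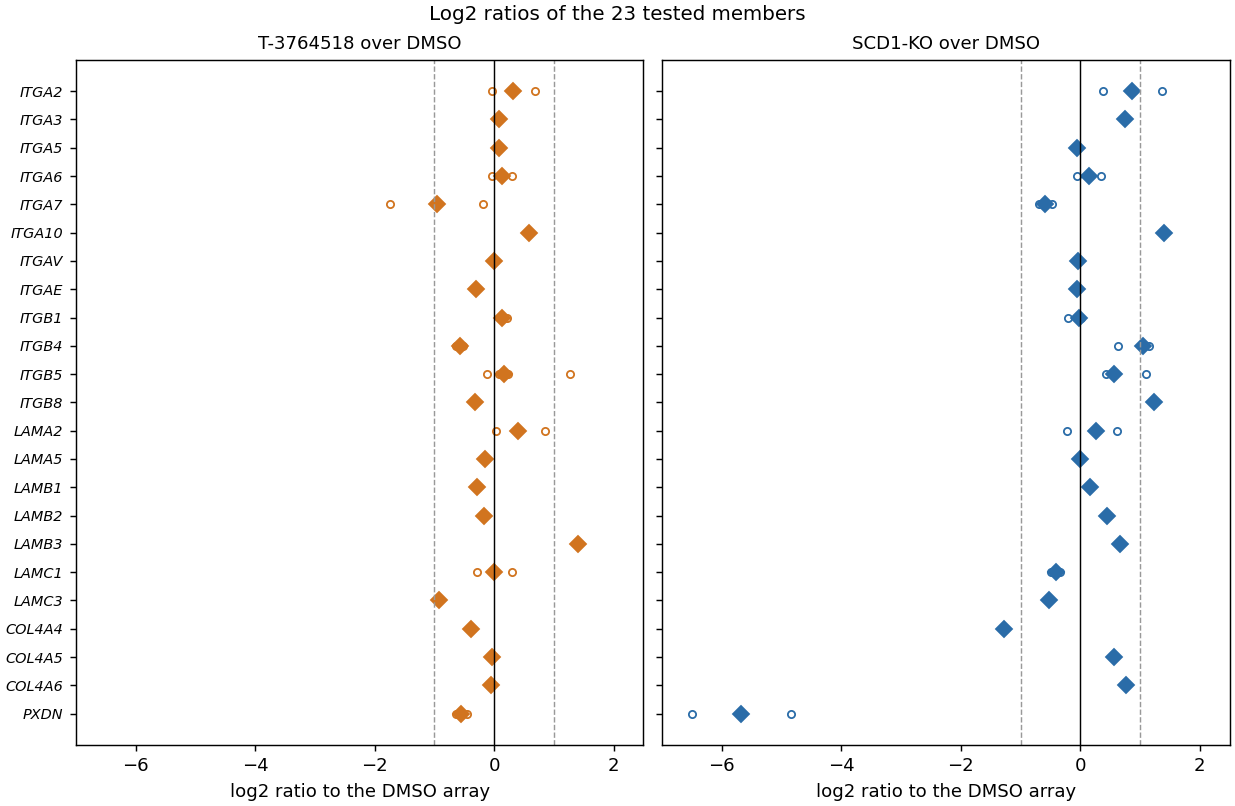
Log2 ratio to the DMSO array of each tested member, with open circles for single kept probe sets and diamonds for the gene median, on signals as deposited; dashed lines mark 2-fold. The probe sets of PXDN lie at -6.51 and -4.84 in the knockout, and those of ITGA7, ITGA2 and ITGB5 spread widely under the inhibitor.

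PXDN was lower in the knockout by more than any other member. One of its probe sets had a signal of 1251 with DMSO, 915 under the inhibitor and 13.8 in the knockout. The other had signals of 464, 296 and 16.2. Both probe sets were well above the level of 56.6 on the arrays of SCD1-WT cells and below it in the knockout, so PXDN passed the filter through the SCD1-WT arrays. The gene was at least 13.5-fold lower in the knockout, with at least 22.1-fold and 8.20-fold for the probe sets. The log2 ratio was -5.67 on the signals as deposited, which for the knockout lie below 56.6, and -3.75 with those signals set to 56.6, so its exact size is not measured. Under the inhibitor the log2 ratio was -0.55, or 0.684-fold, with probe sets at -0.45 and -0.65. In bulk RNA, less PXDN mRNA in each cell and fewer cells that express it cannot be told apart.

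The 250 bases before the start of PXDN, from RefSeq on GRCh38.p14 (chr2:1744516-1744765, minus strand), are shown because this gene had the largest difference among the members. Capitals here and in the sequences below mark 4 motifs, each searched on both strands. The GC box was spelled GGGCGG. The box of NF-Y was spelled CCAAT and is named for these letters. The TATA box was spelled TATAAA. The AP-1 motif was spelled TGANTCA.
PXDN: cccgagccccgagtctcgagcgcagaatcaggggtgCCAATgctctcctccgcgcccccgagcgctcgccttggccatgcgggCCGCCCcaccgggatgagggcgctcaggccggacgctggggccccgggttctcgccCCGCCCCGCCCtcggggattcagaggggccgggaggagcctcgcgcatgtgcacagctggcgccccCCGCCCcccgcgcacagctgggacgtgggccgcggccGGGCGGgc
The window held 5 GC boxes and 1 CCAAT box, and 78.4% of its bases were G or C, where the median of 35116 RefSeq promoter windows was 58.0%. A GC box was present in 42.6% of all these windows, a CCAAT box in 32.0%, a TATA box in 10.7% and an AP-1 motif in 6.57%. Such a match describes letters and is not a measured binding site, and the arrays do not measure binding.

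The collagen IV chains are encoded as 3 head-to-head pairs, and 3 of the 6 chains were tested. COL4A4, the α4 chain, had a signal of 461.5 with DMSO, 351.1 under the inhibitor and 191 in the knockout. Its signal was lowest in the knockout, at 2.42-fold lower, and stood at 0.761-fold under the inhibitor (log2 ratios -1.28 and -0.39; SD between probe sets 0.42 in each, for its mean signal over the 3 arrays). This call rests on 1 probe set. The other probe sets of COL4A4 were near background, with signals of 31.5, 41.3 and 17.2 for one and 8.50, 8.70 and 1.59 for the other. COL4A5, the α5 chain, had signals of 1116, 1089.8 and 1645, and COL4A6, the α6 chain, 158, 153 and 268. Each of these chains was read by 1 kept probe set. Below the filter, 1 COL4A6 probe set went from 48.8 with DMSO to 42.3 in the knockout and another from 4.80 to 25.2. Both chains were near their DMSO level under the inhibitor (0.976-fold and 0.967-fold) and stood above it in the knockout without reaching 2-fold (1.47-fold and 1.70-fold; log2 ratios 0.56 and 0.76 with SDs between probe sets of 0.30 and 0.42). COL4A1 and COL4A2, the chains of the commonest trimer, and COL4A3 did not pass the filter. The median log2 ratio of the 3 tested chains was -0.048 under the inhibitor and 0.56 in the knockout.

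Sequences before the starts of COL4A4 (chr2:227164206-227164455, minus strand) and COL4A5 (chrX:108439588-108439837, plus strand) are shown because each window overlaps that of the gene on the opposite strand.
COL4A4: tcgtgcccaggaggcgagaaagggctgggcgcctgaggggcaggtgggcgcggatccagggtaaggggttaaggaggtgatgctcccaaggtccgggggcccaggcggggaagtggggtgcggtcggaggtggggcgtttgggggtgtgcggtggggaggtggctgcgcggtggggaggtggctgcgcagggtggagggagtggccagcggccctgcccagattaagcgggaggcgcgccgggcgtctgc
COL4A5: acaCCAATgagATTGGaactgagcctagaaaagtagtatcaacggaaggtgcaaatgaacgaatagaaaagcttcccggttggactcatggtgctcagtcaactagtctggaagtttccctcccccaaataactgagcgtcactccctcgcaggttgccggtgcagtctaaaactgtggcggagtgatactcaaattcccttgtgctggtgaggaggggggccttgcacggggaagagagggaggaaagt
The starts of COL4A3 and COL4A4 lie 419 bases apart and their windows share 82 bases. For COL4A5 and the nearer of the COL4A6 starts the distance is 380 bases and the shared stretch 121 bases, and for COL4A1 and COL4A2 it is 127 and 126. The COL4A4 window held none of the 4 motifs, and that of COL4A5 held 2 CCAAT boxes. Within the pairs, COL4A5 and COL4A6 had SCD1-KO ratios of the same sign, each from 1 kept probe set. COL4A4 was lower while COL4A3 was near background, and COL4A1 and COL4A2 were both near background.

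Among the laminins, 7 of 10 chains were tested. LAMB3, the β3 chain of the laminin found under epithelial hemidesmosomes, had a signal of 762 with DMSO, 2024 under the inhibitor and 1209 in the knockout. It was 2.66-fold higher under the inhibitor and 1.59-fold its DMSO level in the knockout (log2 ratios 1.41 and 0.67; SD between probe sets at this signal 0.29 and 0.30). The call rests on 1 probe set. Of genes in the same quintile of signal, 1.66% were 2-fold higher under the inhibitor. The table has 3 starts for LAMB3, and the window before the most upstream one (chr1:209652426-209652675, minus strand) is shown because LAMB3 was the member called under the inhibitor.
LAMB3: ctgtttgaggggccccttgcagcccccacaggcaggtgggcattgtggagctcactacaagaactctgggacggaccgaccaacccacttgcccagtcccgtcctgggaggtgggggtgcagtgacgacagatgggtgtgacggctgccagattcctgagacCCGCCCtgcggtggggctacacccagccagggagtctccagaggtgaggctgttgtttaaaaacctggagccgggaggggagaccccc
Each of the 3 windows held 1 GC box, and the window of the most downstream start also held 1 CCAAT box and 1 AP-1 motif. The window shown overlaps that of the next start (chr1:209652330-209652579), and the GC box is the same site in both.

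The other laminin chains were under 2-fold in both states. LAMC3, the γ3 chain, had signals of 239.8 with DMSO, 127 under the inhibitor and 167 in the knockout, which gave log2 ratios of -0.92 and -0.53. These rest on 1 kept probe set, with an SD between probe sets at this signal of 0.42 in each ratio. The other LAMC3 probe set, below the filter, had signals of 45.4, 53.0 and 43.8. Without the filter the LAMC3 log2 ratio under the inhibitor was -0.35. LAMA5, LAMB1 and LAMC1 encode the chains of laminin-511, a main laminin of adult epithelial basement membranes. LAMA5 was at 0.902-fold under the inhibitor and 1.00-fold in the knockout. LAMB1 was at 0.820-fold and 1.12-fold, with its probe sets within 0.05 of each other on the log2 scale in each ratio. LAMC1 was at 1.00-fold and 0.753-fold, but its probe sets stood at -0.29 and 0.30 under the inhibitor. The genes of this trimer thus stayed within 1.5-fold of their DMSO level. LAMB2, the β2 chain, went from 668 to 591 and 907 (0.885-fold and 1.36-fold), and LAMA2, the α2 chain known from muscle, had geometric mean signals of 228, 307 and 265 (1.32-fold and 1.20-fold). The log2 ratios of the kept LAMA2 probe sets ranged from 0.038 to 0.85 under the inhibitor and from -0.22 to 0.61 in the knockout. The tested chains had a median log2 ratio of -0.15 under the inhibitor and 0.17 in the knockout.

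Of 8 integrin β subunits, 4 were tested. ITGB4, which pairs with α6 in hemidesmosomes, was read by 3 kept probe sets, with signals of 2138, 1436 and 4428, of 665, 428 and 1483, and of 125, 87.3 and 194 on the DMSO, T-3764518 and SCD1-KO arrays. All 3 had their lowest signal under the inhibitor and their highest in the knockout. The gene was at 0.672-fold under the inhibitor and 2.07-fold higher in the knockout (log2 ratios -0.57 and 1.05), with probe sets from -0.63 to -0.52 and from 0.63 to 1.16. The call is lost with the mean of its probe sets (log2 ratio 0.95) and where every probe set has to pass 2-fold. All its kept probe sets are of the kind marked _s_at, which can match several transcripts. ITGB8, which pairs with αv and is known for activating latent TGF-β, showed the same order, with signals of 914, 731 and 2145. It was at 0.799-fold under the inhibitor and 2.35-fold higher in the knockout (log2 ratios -0.32 and 1.23; SD between probe sets 0.29 and 0.30). The ITGB8 call rests on 1 kept probe set of 5, and without the signal filter its knockout log2 ratio was 0.89, under 2-fold. Of genes in the quintile of signal that holds ITGB4, ITGB8 and LAMB3, 1.86% were 2-fold higher in the knockout. The median log2 ratio of the 4 subunits was -0.096 under the inhibitor and 0.81 in the knockout.

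The window before the start of ITGB8 (chr7:20330650-20330899, plus strand) is shown because it was the β subunit with the highest SCD1-KO ratio; the table used here held no window for ITGB4.
ITGB8: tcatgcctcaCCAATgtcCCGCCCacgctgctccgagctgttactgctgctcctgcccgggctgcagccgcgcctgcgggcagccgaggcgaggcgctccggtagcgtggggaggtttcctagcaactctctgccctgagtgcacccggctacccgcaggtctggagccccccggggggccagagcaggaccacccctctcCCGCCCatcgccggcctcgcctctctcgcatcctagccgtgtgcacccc
It held 2 GC boxes and 1 CCAAT box. Of the 39 windows of 31 members, 22 (56.4%) held a GC box, where the share of all windows was 42.6%, and 10 (25.6%) held a CCAAT box, against 32.0%. A TATA box was in 2 member windows (5.13%), against 10.7%, and an AP-1 motif in 2 (5.13%), against 6.57%. Some member windows overlap, so the same site can be counted in more than 1 of them.

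ITGB1, the β subunit shared by most matrix-binding integrins, had geometric mean signals of 9767, 10912 and 9323 and was at 1.10-fold under the inhibitor and 0.987-fold in the knockout. ITGB5, a partner of αv that binds vitronectin, was at 1.12-fold and 1.48-fold. Its 4 probe sets ranged from -0.11 to 1.28 on the log2 scale under the inhibitor and from 0.42 to 1.10 in the knockout, so its ratio under the inhibitor depended on the probe set.

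**Figure D3:**
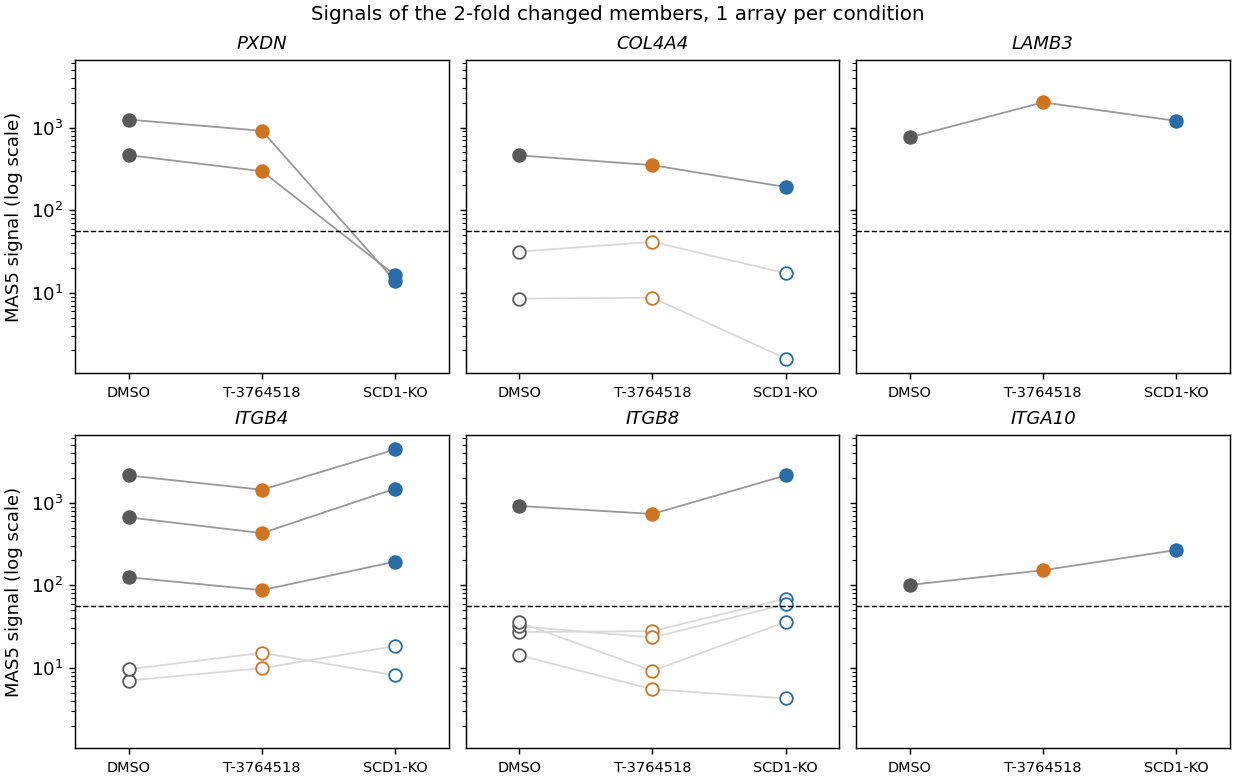
MAS5 signal (log scale) of each probe set of the 6 members called in either ratio, on the arrays of DMSO, T-3764518 and SCD1-KO; filled points are kept probe sets, open points those below the filter, lines join a probe set's values and the dashed line is a signal of 56.6. Both PXDN probe sets cross the dashed line in the knockout, and the kept probe sets of ITGB4 and ITGB8 are lowest under the inhibitor and highest in the knockout.

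Of 12 integrin α subunits, 8 were tested. The collagen-binding subunits ITGA10 and ITGA2 stood above DMSO in the knockout. ITGA10, the α10 subunit known from cartilage, had signals of 101 with DMSO, 152 under the inhibitor and 267 in the knockout. It was at 1.51-fold under the inhibitor and 2.65-fold higher in the knockout (log2 ratios 0.59 and 1.41; SD between probe sets at this signal 0.42 in each). This call too rests on 1 probe set, in a quintile of signal where 4.15% of genes were 2-fold higher in the knockout. ITGA2, the α2 subunit, was at 1.25-fold and 1.83-fold, under the threshold, with one probe set at 3602, 3498 and 4680 and the other at 321, 514.5 and 825. The probe sets of ITGA2 differed in size, with log2 ratios of 0.38 and 1.36 in the knockout.

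None of the laminin-binding subunits reached 2-fold. ITGA3, the α3 subunit, had signals of 709.7, 752 and 1189, or 1.06-fold under the inhibitor and 1.68-fold in the knockout. ITGA6, which pairs with both β1 and β4, had geometric mean signals of 2079, 2281 and 2299 (1.10-fold and 1.11-fold). Beside the 2.07-fold SCD1-KO value of ITGB4, its partner ITGA6 was thus near its DMSO level. ITGA7, the α7 subunit known from muscle, was at 0.513-fold and 0.666-fold on the signals as deposited, and at least 1.73-fold lower under the inhibitor. One of its probe sets went from 149 to 44.8 under the inhibitor, at least 2.64-fold lower, and the other from 251 to 220.1, so the value is a midpoint of probe sets that differed.

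The tested subunits that bind RGD motifs, ITGAV and ITGA5, were within 1.5-fold of DMSO in both ratios. ITGAV, the partner of β5 and β8 among others, had signals of 5344, 5318 and 5220.2 (0.995-fold and 0.977-fold). ITGA5, the fibronectin receptor subunit, was at 1.06-fold and 0.962-fold, with signals of 318, 337 and 305. ITGAE, which pairs with β7 and is known from intraepithelial lymphocytes, was at 0.812-fold and 0.962-fold, with signals of 2931, 2379.5 and 2821. Its partner ITGB7 was near background. The median log2 ratio of the 8 α subunits was 0.084 under the inhibitor and 0.056 in the knockout.

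The members near background were ITGA1, ITGA4, ITGA9, ITGA11, ITGB2, ITGB3, ITGB7, LAMA1, LAMA4, COL4A1, COL4A2, COL4A3, NID1 and NID2. Of their 47 probe sets, 8 reached 56.6 on at least 1 array and 0 on all 3. The signals ran from 0.583 to 92.5, the latter for a COL4A3 probe set with DMSO, which had 55.2 under the inhibitor and 23.3 in the knockout. LAMA4, the α4 chain of laminins around vessels, reached 88.1 under the inhibitor on a probe set that had 58.0 with DMSO and 14.4 in the knockout. NID2 had 41.9, 27.7 and 2.97, and the highest NID1 signal was 56.9, with DMSO. The median over the 47 probe sets was 25.5 with DMSO, 14.8 under the inhibitor and 7.57 in the knockout, and over all 17899 probe sets below the filter that name 1 gene it was 19.5, 15.5 and 15.4. No fold is given for these genes. ITGB6, the epithelial partner of αv, is read by 4 probe sets that the annotation also gives to LINC02478, with signals from 1.40 to 36.1. LAMA3 was not analysed here.

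**Figure D4:**
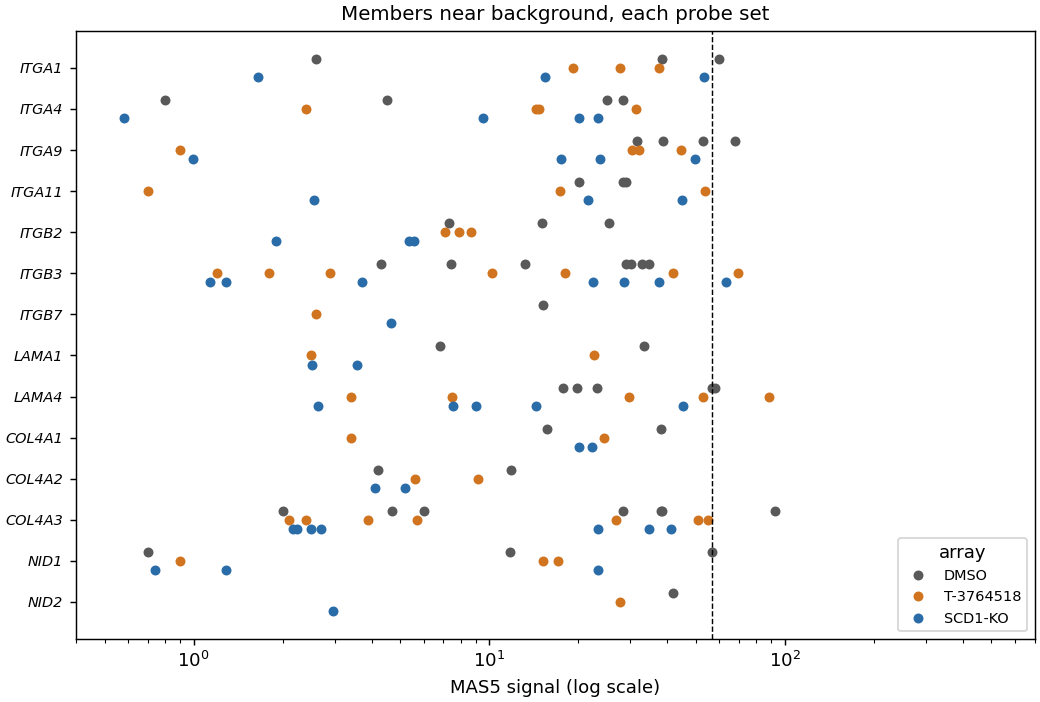
MAS5 signal (log scale) of every probe set of the 14 members near background, coloured by array; the dashed line is a signal of 56.6. Few points lie right of the line, and the highest, at 92.5, belongs to COL4A3 with DMSO.

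Genes that work on or beside these members were described from 5 lists, on the same log2 ratios. Of the genes called in these lists, P4HA1, P3H3, LOXL4, CCN2, NPNT, TLN2 and MMP7 rest on 1 kept probe set each. The list of collagen processing held 25 symbols, some of them second names of the same gene, and 18 genes were tested. In the knockout 4 of these were lower and 1 higher, against 3.93% and 3.12% of all tested genes. PLOD2, a lysyl hydroxylase, went from a geometric mean signal of 4675 with DMSO to 3103 under the inhibitor and 876 in the knockout, 5.34-fold lower. P4HA2 and P4HA1, catalytic subunits of the prolyl 4-hydroxylase that stabilises the collagen helix, were 3.37-fold and 2.75-fold lower in the knockout, and P3H3, of the prolyl 3-hydroxylase family, 2.17-fold lower. LOXL4, of the lysyl oxidase family that crosslinks collagen, was 4.33-fold higher. Under the inhibitor none of the 18 reached 2-fold, and LOXL1, at 0.502-fold, and P3H3, at 0.571-fold, were farthest from 0; the log2 ratios of PLOD2, P4HA2, P4HA1 and LOXL4 were -0.59, -0.36, -0.082 and 0.088. Other tested hydroxylases were not called in the knockout, where PLOD1 was at 0.544-fold, PLOD3 at 1.25-fold and P3H1 at 1.33-fold. The list had a median log2 ratio of -0.097 there and -0.075 under the inhibitor.

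A list of other integrin ligands was mostly of interstitial matrix proteins but also had the cell-surface molecules CDH1, ICAM1 and VCAM1. It held 23 symbols, with second names of CCN1 and CCN2 among them, and 10 genes were tested. CCN2 and CCN1, secreted ligands of αv integrins among others, were 3.16-fold and 2.22-fold higher under the inhibitor and 5.30-fold and 3.13-fold higher in the knockout. THBS1, thrombospondin 1, was 2.81-fold higher in the knockout and at 0.976-fold under the inhibitor. CDH1, E-cadherin and the ligand of the integrin that ITGAE forms, had geometric mean signals of 835, 1197 and 300.1, 2.78-fold lower in the knockout and 1.43-fold its DMSO level under the inhibitor. The list's median log2 ratio was 0.042 under the inhibitor and 0.69 in the knockout.

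Of a list of 24 other basement membrane genes and receptors, with BCAM, CD151, DDR2, DST and PLEC among them, 15 were tested. NPNT, nephronectin, was 5.10-fold lower in the knockout, FBLN1, fibulin 1, was 2.21-fold lower, and SPARC, a collagen-binding matricellular protein, was 3.23-fold higher with probe sets at 0.90 and 2.49. Under the inhibitor none was 2-fold changed, and NPNT and FBLN1 were farthest from 0 at log2 ratios of -0.87 and -0.79. The medians were -0.44 under the inhibitor and 0.27 in the knockout. The list of integrin adaptors held 30 symbols, with a second name of ITGB1BP1 among them, and 25 genes were tested. TLN2, a talin, was at least 2.75-fold lower under the inhibitor and at 1.35-fold in the knockout, where none reached 2-fold and TNS3, a tensin, and ACTN1, an α-actinin, were farthest from 0 at log2 ratios of 0.88 and 0.79. The medians were -0.12 and 0.17. Of 22 proteases and inhibitors, 16 were tested. PLAU, urokinase, was 2.12-fold higher under the inhibitor and 5.10-fold higher in the knockout, and MMP7, matrilysin, was at least 2.41-fold lower under the inhibitor and at 0.700-fold in the knockout. The medians were 0.046 and 0.066.

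**Figure D5:**
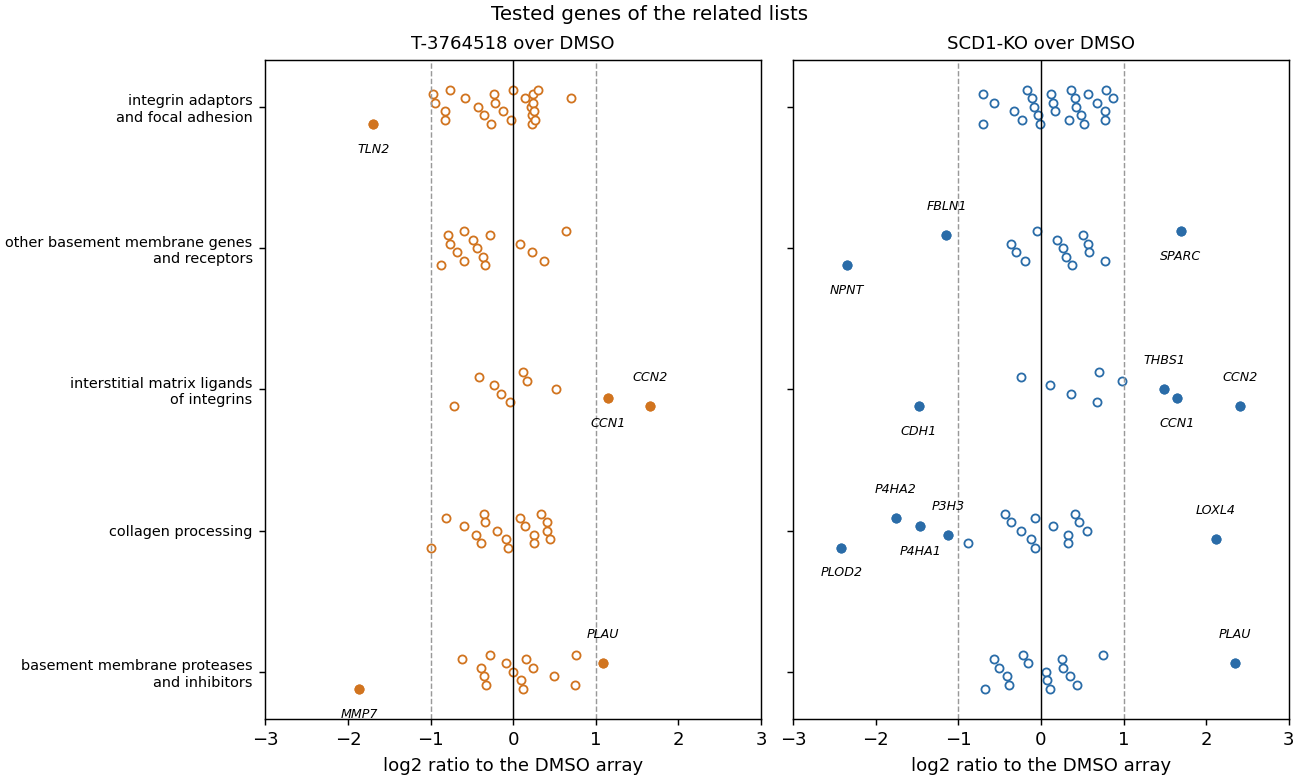
Log2 ratio to the DMSO array of each tested gene of the 5 related lists, on signals as deposited, with filled points and names for genes at 2-fold or more; dashed lines mark 2-fold and the vertical spread within a list has no meaning. Of the collagen processing genes, 4 lie left of the dashed line in the knockout and none does under the inhibitor.

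Cell type markers also differed in the knockout. Of 10 epithelial markers, 9 were tested, and 3 were lower: EPCAM (2.46-fold), CDH1 (2.78-fold) and CLDN7 (2.36-fold), against 3.93% of all tested genes. KRT20 was 3.70-fold higher, CDX2 was at 1.93-fold, and KRT8, KRT18 and KRT19 were at 1.28-fold, 1.20-fold and 1.27-fold. The median log2 ratio over the 9 was 0.26 in the knockout, with 5 above 0. The summed signal of the brightest probe set of each epithelial marker was 88709 with DMSO, 100751 under the inhibitor and 81066 in the knockout. Of 9 fibroblast markers, 4 were tested, and VIM was 4.45-fold higher in the knockout; COL1A2, COL3A1, LUM, PDGFRA and PDGFRB were near background, and the sums were 1789, 1955 and 3429, of which VIM made up most of the increase. The sums were 346, 342 and 197 for 6 endothelial markers, of which PECAM1 was tested, and 226, 185 and 142 for 4 leukocyte markers, of which CD3E and ITGAM were tested. No tested marker was 2-fold changed under the inhibitor. The values of EPCAM, CLDN7, KRT20 and VIM rest on 1 kept probe set each. The part of these markers in the member values was not tested. Of 8 tested housekeeping genes none was 2-fold changed in either ratio.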

How the data were processed

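Total RNA of HCT-116 cells was hybridised to 3 Human Genome U133 Plus 2.0 arrays, 1 per condition. The authors deposited 1 MAS5 signal intensity per probe set on a linear scale, background-subtracted and scaled per array; the release of MAS5 was not stated. The trimmed mean, without 2% of the probe sets at each end, was 499.9 on every array, and with a single array per condition the precision is limited. The table holds 54675 probe sets; the platform annotation gives 41091 of them 1 gene, 1801 several and 11777 none, and 6 more are named control probe sets, which were left out. All 37 members with a probe set of their own matched RefSeq by gene ID.

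Signals were taken to log2 with Python 3.11.15, numpy 2.4.6 and pandas 2.3.3. The filter was set over all probe sets and left 12321 genes; the calling step was tested on simulated data. The members and lists were chosen with earlier results of these data known. Every tested member is named, and of each related list the genes called, or up to 2 farthest from 0. Members of the lists without a probe set of 1 gene were left out. Motifs were chosen after the values were seen. Promoter windows are RefSeq's, for GRCh38.p14. Alternatives were quantile normalization, median scaling, a lowess correction (statsmodels 0.14.6, span 0.3), the filter left out or raised to percentile 75, 16.5 added to each signal, a floor at 56.6, the brightest probe set, the mean of probe sets, no probe sets marked _s_at or _x_at, thresholds of 1.5-fold and 3-fold, and a call by every probe set.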

Additional observations from a re-analysis of the deposited data

Results flagged for a closer look

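Some probe sets of the members lay below the filter and entered no gene value, but were above 56.6 on another array and over 2-fold their DMSO signal as deposited. As these DMSO signals lie below 56.6, the size of the differences is not measured. An ITGB8 probe set had 27.1 with DMSO and 69.0 in the knockout. The other ITGB8 probe sets below the filter had 31.9 and 59.0, 35.6 and 36.0, and 14.2 and 4.26 on these arrays. For ITGB3 one probe set had 30.3 with DMSO and 69.5 under the inhibitor, and another 13.2 with DMSO and 63.1 in the knockout. The other ITGB3 probe sets stayed below 56.6 on every array. Only rises over DMSO were flagged, and falls in such probe sets were not searched for. Examples of falls are an ITGA9 probe set, from 67.9 with DMSO to 23.7 in the knockout, and a NID1 probe set, from 56.9 to 1.29. Their sizes are not measured either, as the SCD1-KO signals lie below 56.6.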

How the results depend on the processing

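Both counts under the inhibitor depend on the threshold: 2 members were higher and 2 lower at 1.5-fold, and 0 were higher at 3-fold. In the knockout 7 were higher at 1.5-fold and 0 at 3-fold, and 1 was lower at 3-fold, which was PXDN. The shares of all tested genes at 3-fold were not computed, so the counts at 3-fold are not read as a result about the members. Without a signal filter, which lets in the 14 members near background, 3 of 37 members were lower under the inhibitor and 9 in the knockout. The median log2 ratios of these members were -0.27 and -0.057, where those of all 19775 genes were -0.13 and -0.087. The share of all genes called lower without the filter was not computed, so these counts are not read as a result about the members. With the filter at percentile 75, 15 members were left, without PXDN and COL4A4, so 0 were lower in the knockout and the median was 0.44. Scaling to 1 median gave medians of 0.24 under the inhibitor and 0.31 in the knockout. The SCD1-KO median was 0.26 from the brightest probe sets and -0.034 without those marked _s_at or _x_at, which left 17 members; the cause of the first was not tested. The other alternatives left these counts within 1.5 times. They moved these medians by less than the mean SD between probe sets divided by the square root of the number of tested members. That is a working limit and not an error of the median, since genes are not replicates. Of 432 recomputed member ratios 19 moved by more than the SD between probe sets, and 0 of the 56 that belong to called ratios changed sign. Of these, 2 fell under 2-fold: ITGB8 in the knockout without the filter (0.89) and ITGB4 in the knockout from the mean of its probe sets (0.95). PXDN stood at -4.63 with the offset, -3.75 with the floor and -6.51 from its brightest probe set. No paired analysis was possible because each condition has 1 array, and for the same reason no array could be left out.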
